A study of Homo sapiens with 12 samples.

Results

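The genes of the unfolded protein response, the integrated stress response and the heat shock response were examined in PANC-1 cells, an established human pancreatic cancer line, with and without sorting for low proteasome activity. The 46 genes were chosen by symbol, as endoplasmic reticulum (ER) chaperones, ER stress sensors, integrated stress genes and heat shock proteins, and all 46 were among the 23284 genes listed. Of these, 45 could be tested, out of 12946 tested genes. CRYAB, a small heat shock protein of muscle and lens, was listed at 0 to 0.294 FPKM in the 12 libraries and was not tested.

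All cells carried the retroviral reporter pQCXIN-ZsGreen-cODC, a green fluorescent protein joined to the degron of ornithine decarboxylase that the proteasome removes, and were kept under G418. Degron (−) cells were the infected line as it was, in which few cells were ZsGreen-positive. Degron (++) cells came from that line by repeated sorting and culture of positive cells and a last sort of the brightest ones. RNA was sequenced in 6 groups of 2 libraries: each population at 48 h without irradiation (0 Gy 48 h), at 30 h with 4 Gy (4 Gy 30 h) and at 48 h with 4 Gy (4 Gy 48 h). The start of these hours is not given, and none of the libraries was at 0 Gy and 30 h. Time after irradiation and time in culture cannot be told apart. The labels of the degron (−) libraries conflict: the titles read ZsGreen–, the descriptions d+. They were read as degron (−), since this is the population that the study set against degron (++) cells. The sorted positive cells before the last sort, named degron (+) by the study, are another population, and if d+ is the true label the comparisons are with that population.

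In the unfolded protein response, sensors in the ER membrane (ERN1, EIF2AK3 and ATF6) answer misfolded protein by raising chaperones and the machinery that returns proteins to the cytosol for the proteasome. The kinase EIF2AK3 is also 1 entry to the integrated stress response, in which translation slows while ATF4 is made and turns on genes of amino acid supply and of cell death. In the heat shock response HSF1 raises cytosolic chaperones, and blocked proteasomes are a known trigger of all of these programmes. Much of this control acts on protein: ATF4 is regulated in its translation, XBP1 by splicing of its mRNA, and HSF1 by its state, none of which is seen in the level of a gene's RNA.

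Elements through which these programmes act lie close to some of the genes. The 250 bases before each RefSeq start site on GRCh38.p14 were searched on both strands for an ER stress element (CCAAT and CCACG with 9 bases between them), the XBP1 and ATF6 core (TGACGTG), the core bound by ATF4 (TGATGNAA) and a heat shock element (GAA, TTC and GAA with 2 bases between each). The table held 44 of the 46 genes, all but HSF1 and CRYAB, with 65 start sites. The ER stress element was found before 8 of the 65 start sites (12.3%), those of HSPA5, HSP90B1, CALR, CANX, PDIA6, CRELD2 and XBP1, against 0.074% of all 35116 promoters. Before 4 start sites (6.15%), those of HERPUD1, ATF3, ASNS and CHAC1, stood the ATF4 core, which 3.14% of all promoters hold. The heat shock element was found for HSPA8, HSP90AA1, HSP90AB1 and HSPD1 (6.15%, against 0.441%), and the XBP1 and ATF6 core for HYOU1, VCP and HSP90AB1 (4.62%, against 1.68%). N fits any base. CCACG and the reverse complement of TGACGTG can share the letters CACG, but no gene held both of these motifs. A match of letters is not a measured binding site.

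These stretches are shown because they stand before genes that later differ in opposite directions, or were not called, although they hold the same element. Each is read 5′ to 3′ along the strand of its gene, and the capitals mark the element, in its reverse complement for CALR, HERPUD1, CHAC1, HSP90AA1 and HSP90AB1. The second of 2 matches is shown for HSP90AB1. The first 4 hold the ER stress element, the next 3 the ATF4 core and the last 2 the heat shock element.
HSPA5: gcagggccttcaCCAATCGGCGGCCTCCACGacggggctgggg
XBP1: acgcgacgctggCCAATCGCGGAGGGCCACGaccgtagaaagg
PDIA6: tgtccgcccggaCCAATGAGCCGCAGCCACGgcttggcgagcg
CALR: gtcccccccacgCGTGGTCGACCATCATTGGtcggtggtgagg
ASNS: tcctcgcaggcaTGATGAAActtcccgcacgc
HERPUD1: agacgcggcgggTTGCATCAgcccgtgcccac
CHAC1: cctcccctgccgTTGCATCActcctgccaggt
HSP90AA1: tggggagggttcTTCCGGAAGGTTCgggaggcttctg
HSP90AB1: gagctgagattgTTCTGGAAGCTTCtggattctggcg
On GRCh38.p14 these are chr9:125241379-125241421 (minus strand), chr22:28800591-28800633 (minus), chr2:10812841-10812883 (minus), chr19:12938372-12938414 (plus), chr7:97872457-97872488 (minus), chr16:56931954-56931985 (plus), chr15:40953250-40953281 (plus), chr14:102087108-102087144 (minus) and chr6:44247819-44247855 (plus). All lie upstream of an annotated start site of the gene.

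The deposited values were FPKM, fragments scaled to exon length and library size, so that levels could be compared between genes per length. No read counts were used, and the depth behind a value is unknown. Degron (++) libraries summed to between 829654 and 916877 FPKM and degron (−) libraries to between 707273 and 763064. A single gene, MIR622, held 28.6% to 30.0% of this in degron (++) libraries, and 22.5% to 27.1% in the others. In all 12 libraries the most similar library was of the same population, but for only 3 it was the other library of the same group. The 8 epithelial markers were at 1 FPKM or more in every library, 7 of them higher and 1 lower in degron (++) cells, with a summed level of 7243 to 8435 FPKM in degron (++) and 4284 to 5195 FPKM in degron (−). The 7 acinar and islet and the 4 endothelial markers stayed under 1 FPKM. The 5 leukocyte markers summed to 4.50 to 6.37 FPKM in degron (++) cells and 124.5 to 165 in degron (−) cells. Of these, CD3E was at 0 and PTPRC at 0.055 FPKM or less. CD68, which tumour cells can express, made up nearly all of the sum in degron (−) cells, whereas CD14 was higher in degron (++) cells (1.07, 0.80 and 0.63 on the log2 scale). The 6 fibroblast markers summed to 14.5 to 25.4 FPKM in degron (++) cells and 37.2 to 53.9 in degron (−) cells. COL1A2 and DCN were at 0, whereas COL1A1 (36.5 to 52.3 FPKM in degron (−), under 1 in degron (++)) and LUM (13.8 to 24.7 in degron (++), 0.290 to 1.605 in degron (−)) differed between the populations. The part of these markers in the results was not tested. In bulk RNA, fewer cells of a type and less RNA per cell cannot be told apart.

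Degron (++) and degron (−) cells differed in most of the stress genes, in both directions and within each programme. Differences are given on the scale of log2(FPKM + 1), degron (++) minus degron (−), with SE, always in the order 0 Gy 48 h, 4 Gy 30 h and 4 Gy 48 h, and were tested with limma over all 12946 genes (Benjamini-Hochberg adjusted p under 0.05). On this scale the change of genes with low FPKM is understated. At 0 Gy 48 h degron (++) cells held more of 19 of the 45 genes and less of 14 (73.3% called), where 77.7% of all genes were called, 37.6% higher and 40.2% lower. At 4 Gy 30 h these were 22 and 13 (77.8%), against 79.1% of all genes (38.3% and 40.8%), and at 4 Gy 48 h 18 and 15 (73.3%), against 76.7% (37.1% and 39.6%). The share of stress genes that differed was therefore close to that of all genes, and their median difference was 0.06, 0.15 and 0.07 against -0.02, -0.02 and -0.01 for all genes.

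The 6 libraries of each population did not overlap for 29 genes, 16 higher and 13 lower in degron (++) cells (64.4%, against 71.3% of all genes, 34.1% and 37.2%). In 26 of these the call was also made in all 3 conditions (57.8% of the 45, against 67% of all genes), with 14 higher and 12 lower in degron (++) cells (32.1% and 34.9% of all genes). Nothing states that the libraries came from separate cultures, so p-values measure the spread between these libraries, which may be technical. The split depends on scaling: with every library rescaled to the same sum (TPM), the median of all genes moved to -0.21, -0.27 and -0.25, and 9 genes were higher and 20 lower at 0 Gy 48 h, 9 and 21 at 4 Gy 30 h, and 8 and 23 at 4 Gy 48 h. This shift of the median concerns all genes, whose calls under TPM rescaling were not counted. Under every alternative tried, 18 genes kept their call in all 3 conditions: HSPA5, HERPUD1, XBP1, ATF4, TRIB3, HSPH1, HSP90AA1 and HSPB8 were higher, and HYOU1, PDIA4, PDIA6, DNAJC3, VCP, DDIT3, HSP90AB1, BAG3, SQSTM1 and NFE2L1 lower, in degron (++) cells. How many of all genes kept their call in this way was not counted, so the 18 cannot be set against a share of all genes. Since a library's scaling cancels in a ratio of 2 of its genes, ratios within a library are given for opposed genes. These pairs were chosen after their values were seen.

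**Figure D1:**
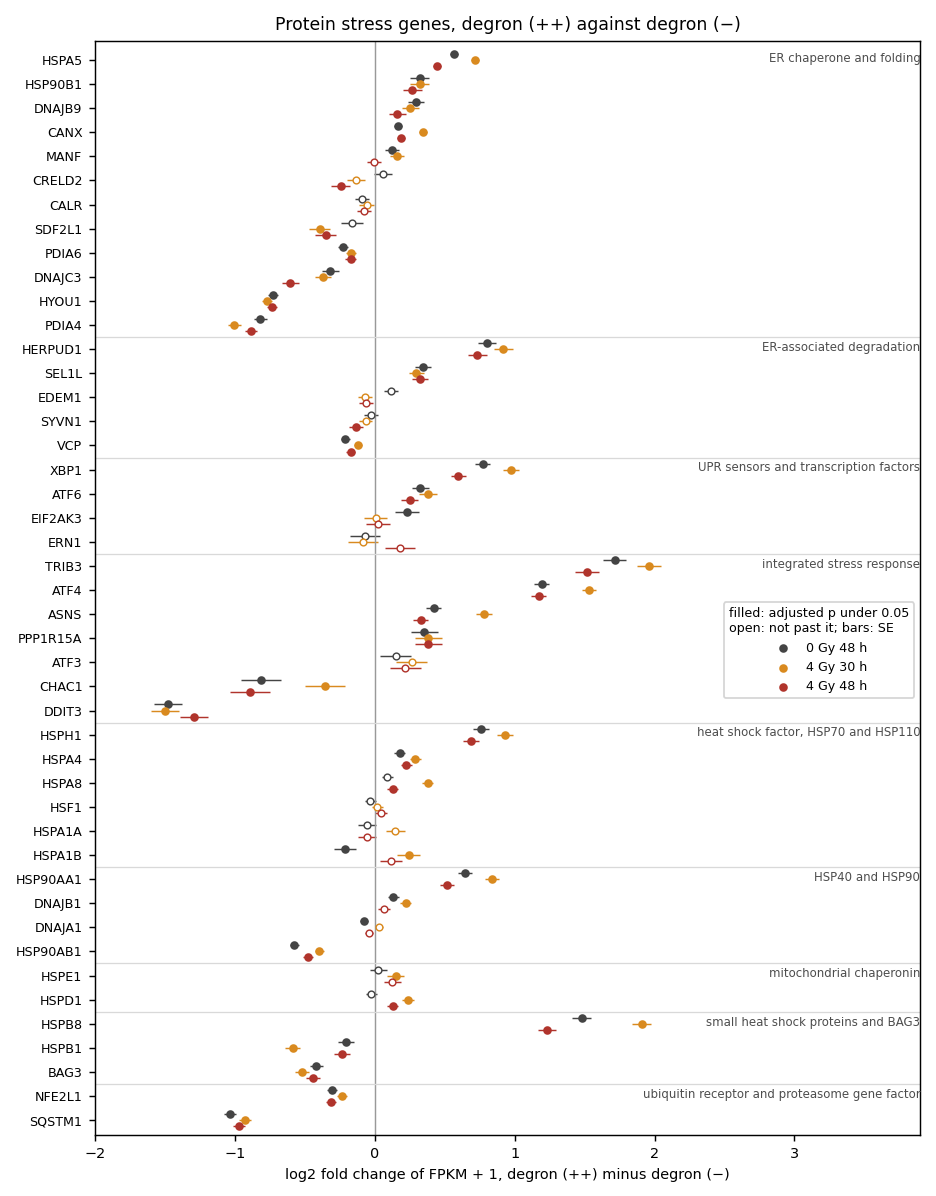
Difference between degron (++) and degron (−) cells on the log2(FPKM + 1) scale (horizontal axis) for the 45 tested genes, grouped by role, with 1 point for each condition, SE as bars and filled points past the threshold. ER chaperones, integrated stress genes and HSP90 genes lie on both sides of 0, from TRIB3 (1.96 at 4 Gy 30 h) to DDIT3 (-1.50 at 4 Gy 30 h).

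Of the 45 genes TRIB3 had the largest positive and DDIT3 the largest negative difference in each condition, and the integrated stress response to which they belong went apart: ATF4, TRIB3 and ASNS were higher in degron (++) cells, while DDIT3 and CHAC1 were lower. ATF4 is the transcription factor at the centre of this response. It was at an FPKM of 378 and 382 at 0 Gy 48 h, 379 and 378 at 4 Gy 30 h and 359.6 and 391 at 4 Gy 48 h in degron (++) cells. ATF4 in degron (−) cells was at 167 and 164 at 0 Gy 48 h, 128 and 133 at 4 Gy 30 h and 158 and 174 at 4 Gy 48 h. All degron (++) libraries lay above all degron (−) libraries, and the difference was 1.19 ± 0.05, 1.53 ± 0.05 and 1.17 ± 0.05 (adjusted p of 7.37e-08 or less), a 2.47-fold higher geometric mean. TRIB3, a pseudokinase induced by ATF4 that dampens signalling through AKT and ATF4 itself, was at an FPKM of 82.5 and 84.7 at 0 Gy 48 h, 87.2 and 86.6 at 4 Gy 30 h and 74.9 and 85.3 at 4 Gy 48 h in degron (++) cells. TRIB3 in degron (−) cells was at 24.9 and 24.7 at 0 Gy 48 h, 20.4 and 22.9 at 4 Gy 30 h and 25.3 and 29.5 at 4 Gy 48 h. The populations were again apart in every library, with a difference of 1.72 ± 0.08, 1.96 ± 0.08 and 1.52 ± 0.08 (adjusted p of 2.89e-07 or less) and a 3.41-fold higher geometric mean. ASNS, which makes asparagine and is a classical ATF4 target, was at an FPKM of 71.2 and 78.96 at 0 Gy 48 h, 91.2 and 98.3 at 4 Gy 30 h and 60.5 and 60.6 at 4 Gy 48 h in degron (++) cells. ASNS in degron (−) cells was at 57.4 and 54.1 at 0 Gy 48 h, 54.3 and 55.1 at 4 Gy 30 h and 48.2 and 47.9 at 4 Gy 48 h. Its degron (++) level was nearest to that of degron (−) cells at 4 Gy 48 h, and the difference was 0.42 ± 0.06, 0.78 ± 0.06 and 0.33 ± 0.06 (adjusted p of 0.000499 or less), but with TPM rescaling it did not pass the threshold at 4 Gy 48 h (0.07).

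DDIT3 (CHOP), the transcription factor that links prolonged ER stress to cell death, was at an FPKM of 13.6 and 16.3 at 0 Gy 48 h, 14.96 and 15.9 at 4 Gy 30 h and 16.4 and 17.6 at 4 Gy 48 h in degron (++) cells. DDIT3 in degron (−) cells was at 39.2 and 47.6 at 0 Gy 48 h, 45.97 and 45.01 at 4 Gy 30 h and 44.4 and 42.04 at 4 Gy 48 h. Every degron (++) library lay below every degron (−) library, the difference was -1.48 ± 0.10, -1.50 ± 0.10 and -1.30 ± 0.10 (adjusted p of 2.58e-06 or less), and the geometric mean was 2.79-fold lower. CHAC1, which breaks down glutathione and is induced by ATF4 together with CHOP, was at an FPKM of 4.99 and 4.98 at 0 Gy 48 h, 8.34 and 7.65 at 4 Gy 30 h and 3.73 and 5.64 at 4 Gy 48 h in degron (++) cells. CHAC1 in degron (−) cells was at 10.3 and 8.78 at 0 Gy 48 h, 10.97 and 10.03 at 4 Gy 30 h and 9.93 and 8.89 at 4 Gy 48 h. Its difference was -0.81 ± 0.14, -0.35 ± 0.14 and -0.89 ± 0.14, lower in degron (++) cells in each condition, the 4 Gy 30 h difference being the smallest (adjusted p = 0.0476). That call was lost when any of 10 libraries, other than those of degron (++) 4 Gy 48 h, was left out (adjusted p 0.0522 to 0.181) and with quantile normalization (-0.27). PPP1R15A, the phosphatase subunit that ends the translation block, was at 17.3 to 25.7 FPKM in degron (++) and 13.01 to 18.4 in degron (−) cells. These ranges overlapped, its difference was 0.35 ± 0.10, 0.38 ± 0.10 and 0.38 ± 0.10, and with TPM rescaling it passed the threshold in none of the conditions (0.16, 0.11 and 0.13). Without degron (++) 0 Gy 48 h replicate 2 or degron (−) 0 Gy 48 h replicate 1 its 0 Gy call was also lost (adjusted p = 0.063 and 0.0678). ATF3, a stress-induced partner of these factors, had differences of 0.15, 0.26 and 0.22 and passed the threshold in no condition. Among the alternatives it was called higher in degron (++) cells in each condition.

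Within a library the ratio of ATF4 to DDIT3 was 21.9 to 27.8 in degron (++) cells and 2.78 to 4.26 in degron (−) cells. TRIB3 exceeded DDIT3 in every degron (++) library (4.56 to 6.06) and was below it in every degron (−) library (0.443 to 0.701). For ASNS to CHAC1 the ratio was 10.7 to 16.2 against 4.86 to 6.16. Both ASNS and CHAC1 hold the ATF4 core shown above.

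Among 37 other tested genes of the integrated stress response, degron (++) cells at 0 Gy 48 h held more of 23 and less of 9 (37.6% and 40.2% of all genes), with a median difference of 0.40. These were 27 and 7 (0.58) at 4 Gy 30 h, against 38.3% and 40.8% of all genes, and 23 and 9 (0.40) at 4 Gy 48 h, against 37.1% and 39.6%. The genes named next were chosen as the largest rises and falls of this list, so their opposite directions follow from that choice. CTH, which makes cysteine from cystathionine, was at 27.9 to 31.6 FPKM in degron (++) and 2.67 to 5.81 in degron (−) cells (2.74 ± 0.08, adjusted p = 5.91e-09), and CBS, the enzyme just before it, at 0.597 to 1.21 and 30.4 to 39.9 (-4.36 ± 0.08, adjusted p = 3.92e-10). DDIT4, an inhibitor of mTORC1, was at 379 to 496 FPKM in degron (++) and 74.6 to 134 in degron (−) cells (1.98 ± 0.08, adjusted p = 4.54e-08). GDF15, a secreted stress cytokine, was at 0.255 to 1.96 and 10.2 to 17.4 (-3.12 ± 0.19, adjusted p = 5.30e-07).

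**Figure D2:**
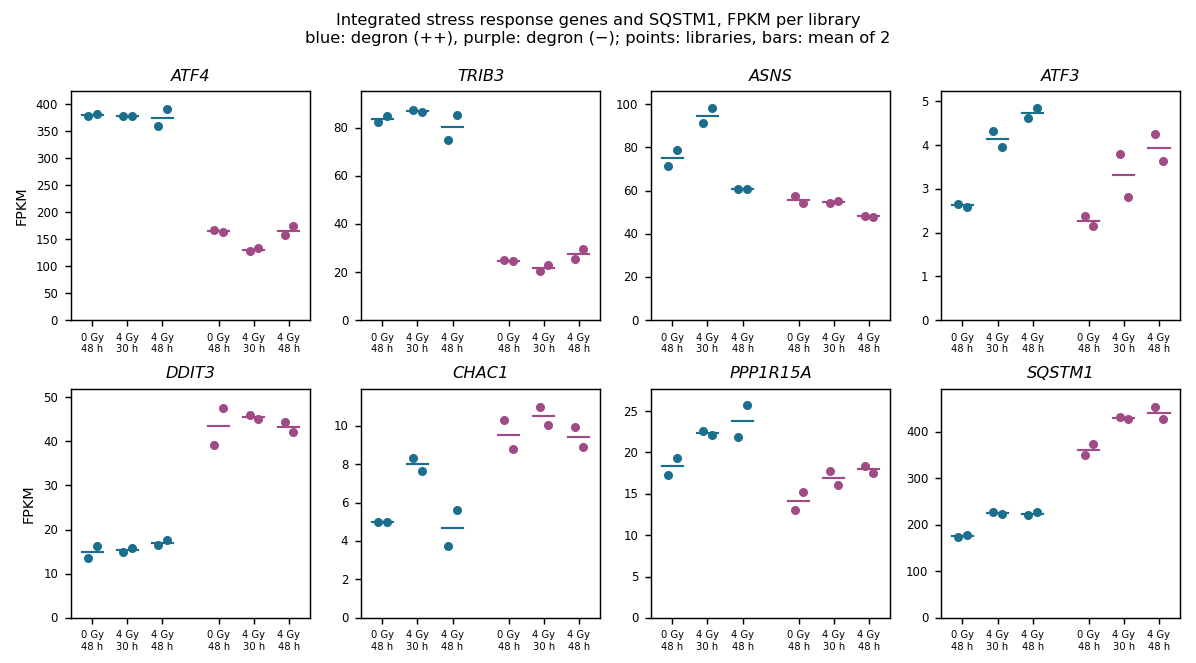
FPKM (vertical axis, from 0) of 7 integrated stress genes and SQSTM1 in each library, by population and condition, with the mean of each group of 2 as a bar. ATF4 and TRIB3 lie higher, and DDIT3 and SQSTM1 lower, in all degron (++) libraries, while ATF3 overlaps.

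ER chaperones differed in both directions, as all genes did. At 0 Gy 48 h 5 of 12 were higher, 4 lower and 3 not called, near the shares of all genes (37.6% higher and 40.2% lower). The most abundant of the 12, CALR, was at 641 to 707 FPKM in degron (++) and 682 to 747 in degron (−) cells. It passed the threshold in no condition (-0.09, -0.06 and -0.08). With TPM rescaling and quantile normalization it was called lower in degron (++) cells in every condition (down to -0.41). HSPA5 (BiP), the ER HSP70 that holds the sensors inactive, was at an FPKM of 294 and 301 at 0 Gy 48 h, 311 and 305 at 4 Gy 30 h and 295 and 292 at 4 Gy 48 h in degron (++) cells. HSPA5 in degron (−) cells was at 199.5 and 202 at 0 Gy 48 h, 187 and 187 at 4 Gy 30 h and 213 and 218 at 4 Gy 48 h. Every degron (++) library was above every degron (−) library, by 0.57 ± 0.03, 0.72 ± 0.03 and 0.45 ± 0.03 (adjusted p of 7.23e-07 or less; 1.49-fold). PDIA4, a disulfide isomerase, was at an FPKM of 92.7 and 96.4 at 0 Gy 48 h, 86.3 and 83.2 at 4 Gy 30 h and 91.3 and 89.96 at 4 Gy 48 h in degron (++) cells. PDIA4 in degron (−) cells was at 164 and 171 at 0 Gy 48 h, 177 and 165 at 4 Gy 30 h and 171 and 165 at 4 Gy 48 h. It was lower in degron (++) cells, with differences of -0.82 ± 0.04, -1.003 ± 0.04 and -0.88 ± 0.04 (adjusted p of 2.36e-07 or less; 1.88-fold lower). HYOU1, the nucleotide exchange factor of HSPA5, was at an FPKM of 56.2 and 58.9 at 0 Gy 48 h, 55.6 and 55.3 at 4 Gy 30 h and 57.5 and 58.6 at 4 Gy 48 h in degron (++) cells. HYOU1 in degron (−) cells was at 93.9 and 97.9 at 0 Gy 48 h, 95.8 and 95.1 at 4 Gy 30 h and 99.3 and 95.4 at 4 Gy 48 h. It differed by -0.73 ± 0.04, -0.77 ± 0.04 and -0.74 ± 0.04 (adjusted p of 1.58e-07 or less; 1.69-fold lower). For each of these 3 genes the libraries of the populations did not overlap.

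Accordingly the ratio of HSPA5 to PDIA4 within a library was 3.12 to 3.66 in degron (++) cells and 1.054 to 1.32 in degron (−) cells, and that of HSPA5 to HYOU1 was 4.99 to 5.597 and 1.95 to 2.28. Also lower in degron (++) cells were DNAJC3, an HSPA5 cochaperone that restrains EIF2AK3 (-0.32, -0.37 and -0.60), and PDIA6, an isomerase (-0.23, -0.17 and -0.17). These kept their calls with each scaling. SDF2L1, another HSPA5 cochaperone, was at 35.9 to 43.8 FPKM in degron (++) and 46.4 to 56.1 in degron (−) cells, without overlap, and was called at 4 Gy 30 h and 48 h (-0.39 and -0.35). HSP90B1 (GRP94), the HSP90 of the ER, was higher by 0.32, 0.32 and 0.27, but with TPM rescaling it passed the threshold in no condition (0.11, 0.04 and 0.00). The lectin chaperone CANX was higher by 0.17, 0.35 and 0.19, and with TPM rescaling its difference was -0.04, 0.06 and -0.07, with no call.

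For DNAJB9, MANF and CRELD2 the scaling or 1 library could end a call. DNAJB9, an HSPA5 cochaperone of ER-associated degradation, differed by 0.29, 0.25 and 0.16, with a call in each condition, but lay at -0.08 at 4 Gy 48 h with TPM rescaling. That last call was also lost without degron (++) 4 Gy 48 h replicate 1 or either degron (−) 4 Gy 48 h library (adjusted p 0.0667 to 0.192). MANF, a secreted ER stress factor, differed by 0.13, 0.16 and -0.01 with calls in the first 2 conditions, which turned to -0.08 and -0.12 with TPM rescaling. Its 0 Gy call was lost in 9 of the 12 fits that left out a library, the exceptions being degron (++) 0 Gy 48 h replicate 1 and both degron (++) 4 Gy 48 h libraries (adjusted p up to 0.341), and its 4 Gy 30 h call without either degron (++) 4 Gy 30 h library or degron (−) 4 Gy 30 h replicate 2 (0.054 to 0.081). CRELD2, an ER isomerase-like protein, differed by 0.06, -0.13 and -0.25 and was called at 4 Gy 48 h only, not without degron (−) 4 Gy 48 h replicate 1 (adjusted p = 0.0599).

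**Figure D3:**
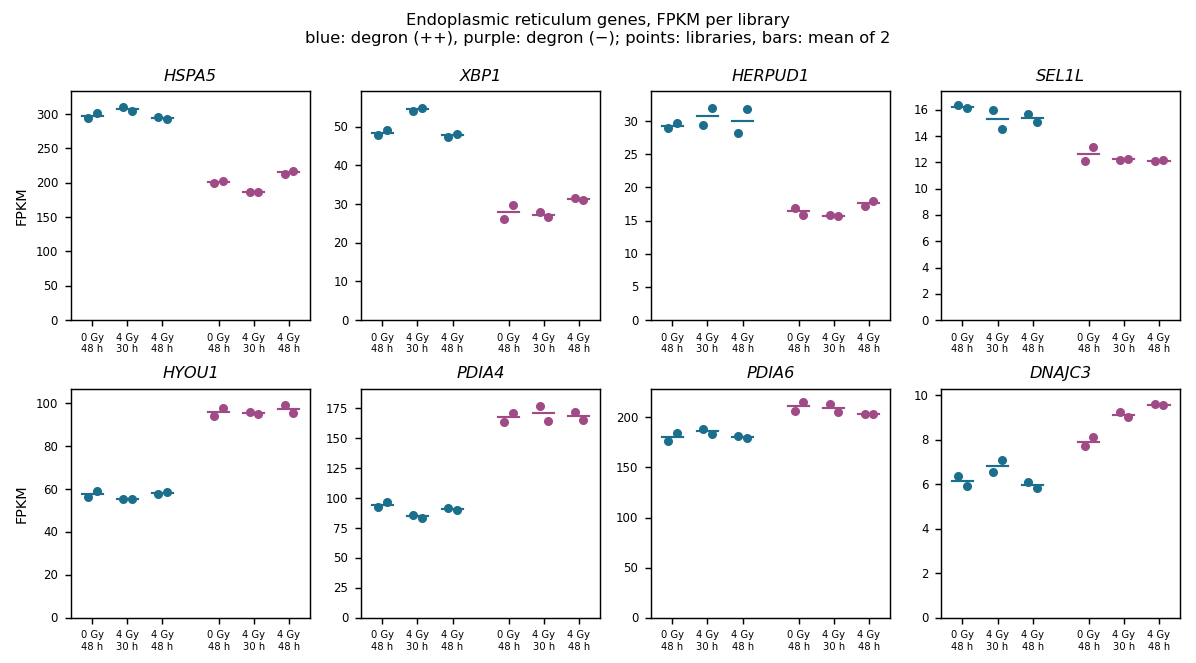
FPKM (vertical axis, from 0) of 8 ER stress genes in each library, by population and condition, with the mean of each group of 2 as a bar. HSPA5, XBP1, HERPUD1 and SEL1L lie higher in all degron (++) libraries, and HYOU1, PDIA4, PDIA6 and DNAJC3 lower.

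Of the sensors and factors that govern these genes, XBP1 stood out. XBP1, whose spliced form drives chaperone and degradation genes, was at an FPKM of 47.9 and 49.1 at 0 Gy 48 h, 54.1 and 54.9 at 4 Gy 30 h and 47.5 and 48.1 at 4 Gy 48 h in degron (++) cells. XBP1 in degron (−) cells was at 26.3 and 29.9 at 0 Gy 48 h, 27.9 and 26.7 at 4 Gy 30 h and 31.5 and 31.1 at 4 Gy 48 h. It was higher in all degron (++) libraries, by 0.77 ± 0.05, 0.97 ± 0.05 and 0.60 ± 0.05 (adjusted p of 8.50e-06 or less; 1.74-fold). FPKM per gene do not separate its spliced from its unspliced form. ATF6 was higher by 0.33, 0.38 and 0.25, at 9.58 to 10.6 against 7.59 to 8.35 FPKM, but passed the threshold in no condition with TPM rescaling (0.14, 0.13 and 0.01). ERN1, the sensor that splices XBP1, was at 1.40 to 1.93 FPKM in degron (++) and 1.31 to 1.95 in degron (−) cells and was called in no condition. Among the alternatives ERN1 passed the threshold at 4 Gy 30 h and 4 Gy 48 h. EIF2AK3 was called at 0 Gy 48 h only (0.23 ± 0.09, adjusted p = 0.0349), not after leaving out any 1 of the 4 libraries compared (adjusted p 0.0725 to 0.124), and with TPM rescaling its 4 Gy 30 h difference was -0.24.

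In ER-associated degradation, HERPUD1, which gathers the complex at the membrane, was at an FPKM of 28.9 and 29.7 at 0 Gy 48 h, 29.4 and 32.02 at 4 Gy 30 h and 28.2 and 31.9 at 4 Gy 48 h in degron (++) cells. HERPUD1 in degron (−) cells was at 16.9 and 15.8 at 0 Gy 48 h, 15.9 and 15.6 at 4 Gy 30 h and 17.3 and 18.02 at 4 Gy 48 h. Again all degron (++) libraries were higher, by 0.80 ± 0.06, 0.92 ± 0.06 and 0.73 ± 0.06 (adjusted p of 6.75e-06 or less; 1.81-fold). SEL1L, the scaffold of the ubiquitin ligase, was higher by 0.34, 0.30 and 0.32, which with TPM rescaling became 0.15, 0.03 and 0.08 with no call. VCP, the ATPase that pulls proteins out of the membrane, was lower in degron (++) cells (-0.21, -0.12 and -0.17), at 181 to 192 against 201 to 214 FPKM. The ligase SYVN1 was called at 4 Gy 48 h only (-0.14), not without replicate 1 of degron (++) or of degron (−) 4 Gy 48 h. EDEM1, which trims glycans of misfolded proteins, was called in no condition (0.12, -0.07 and -0.06). Among the alternatives EDEM1 was called higher in degron (++) cells at 0 Gy 48 h and lower at 4 Gy 30 h and 48 h.

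At 0 Gy 48 h, where 37.6% of all genes were higher and 40.2% lower in degron (++) cells, the other genes of these lists also held both directions. Of 33 other genes of ER folding and translocation 11 were higher and 15 lower in degron (++) cells (median -0.07), of 18 of ER-associated degradation 7 and 9 (median -0.16), and of 12 of the unfolded protein response 4 and 6. These counts and medians were not repeated under TPM rescaling. SDF2, a paralog of SDF2L1, was at 128 to 140.4 FPKM in degron (++) and 40.6 to 56.2 in degron (−) cells (1.46 ± 0.07, adjusted p = 1.32e-07), the opposite direction to SDF2L1. CREB3L2, an ER-bound transcription factor, was at 18.8 to 21.98 against 5.78 to 8.20 FPKM (1.48 ± 0.06), and WFS1, an ER membrane protein that restrains ATF6, at 2.92 to 3.99 against 23.9 to 29.4 (-2.58 ± 0.07, adjusted p = 3.04e-09).

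The heat shock response, too, was split between close relatives. HSF1 was at 50.1 to 57.2 FPKM in degron (++) and 51.2 to 54.6 in degron (−) cells and was called in no condition (-0.03, 0.02 and 0.04), although with TPM rescaling it was lower in degron (++) cells (-0.24, -0.26 and -0.22). HSP90AA1, the stress-inducible cytosolic HSP90, was at an FPKM of 814 and 844 at 0 Gy 48 h, 865 and 927 at 4 Gy 30 h and 814 and 768 at 4 Gy 48 h in degron (++) cells. HSP90AA1 in degron (−) cells was at 517 and 544 at 0 Gy 48 h, 511 and 489 at 4 Gy 30 h and 557 and 550.0 at 4 Gy 48 h. Every degron (++) library held more, by 0.64 ± 0.05, 0.84 ± 0.05 and 0.51 ± 0.05 (adjusted p of 1.12e-05 or less; 1.59-fold). HSP90AB1, the constitutive form, was at an FPKM of 639 and 657 at 0 Gy 48 h, 711 and 697 at 4 Gy 30 h and 678 and 663 at 4 Gy 48 h in degron (++) cells. HSP90AB1 in degron (−) cells was at 952 and 979.7 at 0 Gy 48 h, 940.3 and 915 at 4 Gy 30 h and 940.5 and 927 at 4 Gy 48 h. Every degron (++) library held less, with differences of -0.58 ± 0.03, -0.40 ± 0.03 and -0.48 ± 0.03 (adjusted p of 4.46e-06 or less; 1.40-fold lower). Thus HSP90AA1 exceeded HSP90AB1 in every degron (++) library (ratio 1.16 to 1.33) and was below it in every degron (−) library (0.535 to 0.593). Both promoters hold the heat shock element shown above.

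HSPH1 (HSP110), the exchange factor of cytosolic HSP70, was at an FPKM of 175 and 177 at 0 Gy 48 h, 190.3 and 202 at 4 Gy 30 h and 186 and 167 at 4 Gy 48 h in degron (++) cells. HSPH1 in degron (−) cells was at 101 and 106 at 0 Gy 48 h, 106 and 99.3 at 4 Gy 30 h and 111 and 107 at 4 Gy 48 h. Without overlap it was higher in degron (++) cells, by 0.76 ± 0.06, 0.93 ± 0.06 and 0.69 ± 0.06 (adjusted p of 4.16e-06 or less; 1.74-fold). BAG3, the HSP70 cochaperone of selective autophagy, was at an FPKM of 52.7 and 54.2 at 0 Gy 48 h, 54.6 and 54.5 at 4 Gy 30 h and 54.4 and 59.3 at 4 Gy 48 h in degron (++) cells. BAG3 in degron (−) cells was at 74.2 and 69.3 at 0 Gy 48 h, 79.9 and 77.2 at 4 Gy 30 h and 76.6 and 78.5 at 4 Gy 48 h. Without overlap it was lower in degron (++) cells, with differences of -0.42 ± 0.05, -0.52 ± 0.05 and -0.44 ± 0.05 (adjusted p of 4.43e-05 or less; 1.38-fold lower). Their ratio within a library was 2.82 to 3.71 in degron (++) cells and 1.29 to 1.53 in degron (−) cells. HSPA8, the constitutive HSP70 and the most abundant of the 46 genes, was at 1705 to 1951 FPKM in degron (++) and 1460 to 1619 in degron (−) cells. It was called higher at 4 Gy 30 h and 48 h (0.38 and 0.13), but lay at -0.20, -0.05 and -0.29 with quantile normalization and at -0.12, 0.09 and -0.14 with TPM rescaling. Its 4 Gy 48 h call was lost without degron (−) 4 Gy 48 h replicate 1 (adjusted p = 0.0881).

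The classical heat-inducible genes HSPA1A and HSPA1B overlapped between the populations. HSPA1A was at 25.2 to 27.7 FPKM in degron (++) and 23.8 to 29.9 in degron (−) cells and was called in no condition. Among the alternatives it was called lower in degron (++) cells at 0 Gy 48 h and 4 Gy 48 h, where the lowest differences were -0.26 and -0.31. HSPA1B differed by -0.21, 0.24 and 0.12 with calls in opposite directions in the first 2 conditions, neither of which held without a library: the 0 Gy call went without degron (++) 0 Gy 48 h replicate 1, either degron (−) 0 Gy 48 h or either degron (−) 4 Gy 48 h library (adjusted p up to 0.194), and the 4 Gy 30 h call without degron (++) replicate 2 or degron (−) replicate 1 of that group (0.131 to 0.161). HSPA1A and HSPA1B share 1766 stretches of 50 bases (72.6% and 71.4% of those in their transcripts), so reads can be split between them and the values are uncertain. HSPA8, HSPD1, HSPE1 and both HSP90 genes have processed pseudogenes, which can take up reads likewise. HSPA4, an HSP110 relative, was higher by 0.18, 0.29 and 0.22, which became -0.03, 0.01 and -0.04 with TPM rescaling.

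Among the HSP40 cochaperones, DNAJB1 differed by 0.13, 0.22 and 0.07, with calls in the first 2 conditions, and by -0.08, -0.06 and -0.20 with TPM rescaling. Its 0 Gy call was lost without degron (++) replicate 2 or degron (−) replicate 1 of 0 Gy 48 h (adjusted p 0.0682 to 0.0764). DNAJA1 differed by -0.08, 0.03 and -0.04, with a call at 0 Gy 48 h that was lost without degron (++) 0 Gy 48 h replicate 1 or either degron (−) 0 Gy 48 h library (0.0595 to 0.137), and its 4 Gy 30 h difference was -0.25 with TPM rescaling. The mitochondrial chaperonin pair HSPD1 and HSPE1 was not called at 0 Gy 48 h, and HSPD1 was higher at 4 Gy 30 h (0.24) and 48 h (0.13), HSPE1 at 4 Gy 30 h (0.15). With TPM rescaling these became -0.05, -0.14 and -0.13. The 4 Gy 48 h call of HSPD1 was lost without replicate 1 of either population in that group (0.111 to 0.113). The 4 Gy 30 h call of HSPE1 was lost in 8 of the 12 fits without a library, all but those without a degron (++) 0 Gy 48 h or 4 Gy 48 h library (0.0629 to 0.132).

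HSPB8, a small heat shock protein that works with BAG3, had the largest difference outside the integrated stress response. It was at an FPKM of 34.7 and 34.2 at 0 Gy 48 h, 39.9 and 37.5 at 4 Gy 30 h and 41.5 and 41.6 at 4 Gy 48 h in degron (++) cells. HSPB8 in degron (−) cells was at 11.4 and 12.04 at 0 Gy 48 h, 10.2 and 8.998 at 4 Gy 30 h and 16.3 and 18.01 at 4 Gy 48 h. In all degron (++) libraries it was higher, by 1.48 ± 0.07, 1.91 ± 0.07 and 1.23 ± 0.07 (adjusted p of 2.63e-07 or less; 3.07-fold). HSPB1 (HSP27), by contrast, was at an FPKM of 283 and 294 at 0 Gy 48 h, 268 and 270.0 at 4 Gy 30 h and 308 and 324 at 4 Gy 48 h in degron (++) cells. HSPB1 in degron (−) cells was at 338 and 328 at 0 Gy 48 h, 427 and 383 at 4 Gy 30 h and 385 and 360.1 at 4 Gy 48 h. This gene was lower in degron (++) cells, with differences of -0.21 ± 0.06, -0.59 ± 0.06 and -0.24 ± 0.06 (adjusted p of 0.0085 or less). Its 0 Gy call was lost without degron (++) 0 Gy 48 h replicate 1 (adjusted p = 0.0545). The ratio of HSPB8 to BAG3 within a library was 0.631 to 0.763 in degron (++) cells and 0.117 to 0.229 in degron (−) cells.

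SQSTM1 (p62), the receptor that carries ubiquitinated proteins to autophagy, was at an FPKM of 174 and 177 at 0 Gy 48 h, 227 and 223 at 4 Gy 30 h and 221 and 227 at 4 Gy 48 h in degron (++) cells. SQSTM1 in degron (−) cells was at 349 and 373 at 0 Gy 48 h, 431 and 428 at 4 Gy 30 h and 454 and 427 at 4 Gy 48 h. It was lower in all degron (++) libraries, with differences of -1.03 ± 0.04, -0.93 ± 0.04 and -0.97 ± 0.04 (adjusted p of 6.43e-08 or less; 1.97-fold lower). NFE2L1, the transcription factor that raises proteasome genes when proteasomes are blocked, was at 65.001 to 73.4 against 80.3 to 86.6 FPKM, with differences of -0.31, -0.23 and -0.31. At 0 Gy 48 h, where 37.6% of all genes were higher and 40.2% lower, 23 of 43 proteasome subunits, activators and assembly factors were higher and 13 lower (median 0.16), of 18 other ubiquitin receptor and autophagy genes 9 and 6 (0.15), and of 46 other heat shock chaperones 21 and 17 (0.08). These counts and medians were not repeated under TPM rescaling, where the median of all genes was -0.21, so their direction may depend on scaling. PSMC4, an ATPase of the proteasome cap, was at 189 to 213 FPKM in degron (++) and 2049 to 2213 in degron (−) cells (-3.46 ± 0.04, adjusted p = 3.77e-11). Among proteasome genes without overlap it had the largest fall, and the next was that of PSMB1 (-0.88 ± 0.06). The largest rises there were those of PSME1 (1.09 ± 0.06) and PSME3 (1.08 ± 0.04). GABARAPL1, which decorates autophagosomes, was at 42.96 to 79.9 against 8.66 to 17.5 FPKM (2.12 ± 0.07), BAG1, an HSP70 cochaperone that leads clients to the proteasome, at 45.2 to 61.7 against 12.6 to 16.3 (1.89 ± 0.08), and HSPA4L, an HSP110 relative, at 2.71 to 3.65 against 11.8 to 13.9 (-1.78 ± 0.09).

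**Figure D4:**
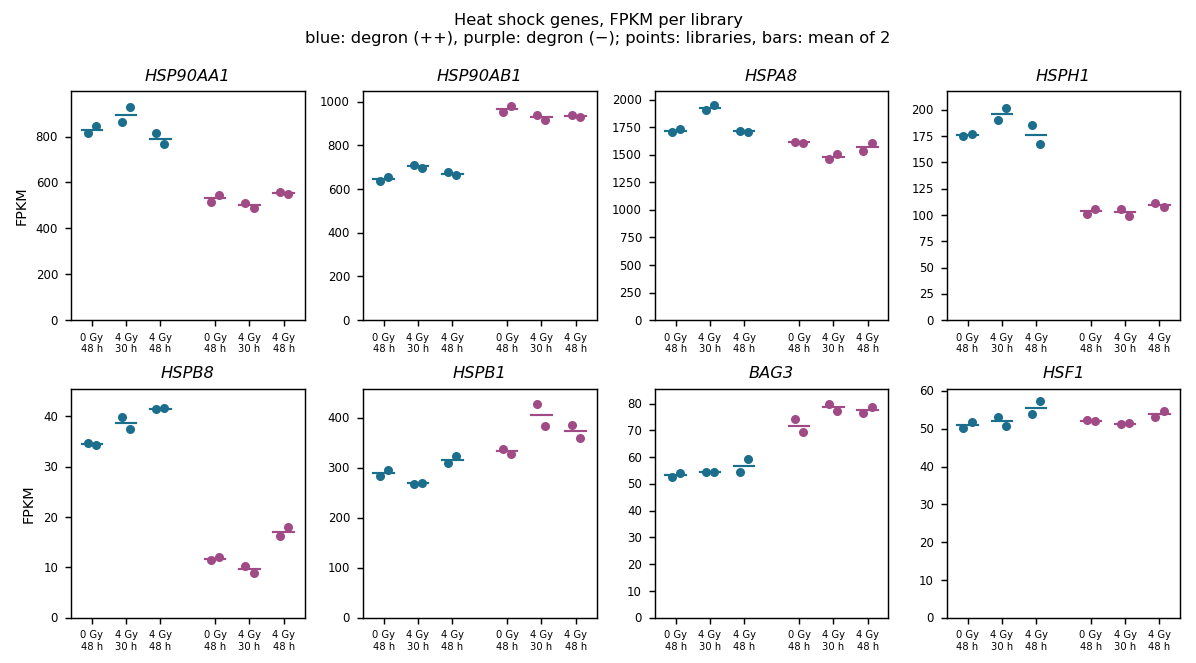
FPKM (vertical axis, from 0) of 8 heat shock genes in each library, by population and condition, with the mean of each group of 2 as a bar. HSP90AA1, HSPH1 and HSPB8 lie higher and HSP90AB1, HSPB1 and BAG3 lower in all degron (++) libraries, while HSF1 overlaps.

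Irradiation moved few of these genes. At 48 h, 4 Gy against 0 Gy raised 2 of 45 genes and lowered 1 in degron (++) cells (1.82% of all genes were called, 1.42% rising and 0.402% falling). It raised 4 and lowered 0 in degron (−) cells (4.73%, 3.85% rising and 0.873% falling). In degron (++) cells 11 of the 45, and 2282 of all 12946 genes, had an unadjusted limma p under 0.05. In degron (−) cells 12 of the 45, and 2704 of all genes, did. ATF3, a p53- and stress-induced factor, rose from 2.67 and 2.59 to 4.63 and 4.84 FPKM in degron (++) cells (0.66 ± 0.11, adjusted p = 0.0296) and from 2.39 and 2.15 to 4.25 and 3.64 in degron (−) cells (0.60 ± 0.11, adjusted p = 0.0227). SQSTM1 rose in both populations, in degron (++) cells (0.35 ± 0.04, adjusted p = 0.013) and in degron (−) cells (0.29 ± 0.04, adjusted p = 0.00826). The libraries of the doses did not overlap for either gene in either population. In degron (++) cells ASNS fell, from 71.2 and 78.96 to 60.5 and 60.6 FPKM (-0.30 ± 0.06, adjusted p = 0.0384). In degron (−) cells HSPB8 rose from 11.4 and 12.04 to 16.3 and 18.01 FPKM (0.51 ± 0.07, adjusted p = 0.00581) and DNAJB9 from 5.93 and 6.19 to 7.89 and 8.15 (0.35 ± 0.06, adjusted p = 0.0159). No gene of the 45 differed between the populations in its response to dose (0.0772% of all genes did, 0.0232% higher and 0.0541% lower; 7 of the 45, and 1758 of all genes, had an unadjusted p under 0.05).

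These calls were fragile. Leaving out any 1 of the 4 libraries compared ended the calls of ATF3 and SQSTM1 in degron (++) cells (adjusted p 0.104 to 0.148 and 0.0538 to 0.0978) and of ATF3 and DNAJB9 in degron (−) cells (0.0616 to 0.12 and 0.0517 to 0.105), leaving out degron (−) 4 Gy 48 h replicate 2 ended that of HSPB8 (0.0507), and that of ASNS was lost in 10 of 12 fits, all but those without a degron (++) 4 Gy 30 h library (0.0521 to 0.144). With TPM rescaling 0 genes rose in degron (++) and 2 in degron (−) cells. The summed level of the epithelial markers was 7243 to 7697 FPKM at 0 Gy and 7913 to 8435 at 4 Gy in degron (++), and 4457 to 4831 and 5052 to 5195 in degron (−) cells, and its part in the results was not tested.

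At 4 Gy, between 30 h and 48 h, only ASNS of the 45 genes passed the threshold in degron (++) cells (1.21% of all genes did, 0.657% rising and 0.548% falling), falling from 91.2 and 98.3 to 60.5 and 60.6 FPKM (-0.64 ± 0.06, adjusted p = 0.0028). Its degron (−) level was 54.3 and 55.1 at 30 h and 48.2 and 47.9 at 48 h (-0.18 ± 0.06, adjusted p = 0.0876), and the change differed between the populations (-0.45 ± 0.08, adjusted p = 0.0222). CHAC1 was at 8.34 and 7.65 and 3.73 and 5.64 FPKM, without overlap, but did not pass the threshold (-0.68 ± 0.14, adjusted p = 0.0668).

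In the list of 37 other integrated stress genes, 12 fell and 0 rose over this time in degron (++) cells, where 0.548% of all genes fell, and the median of the list was -0.23 against 0.00 for all genes. The 12 are named here after their values were seen. PSAT1, PHGDH and PSPH are the enzymes of serine synthesis. PSAT1 went from 274 and 286 to 179 and 180.2 FPKM (-0.64 ± 0.06, adjusted p = 0.0028), PHGDH from 187 and 180.3 to 129 and 137, and PSPH from 26.4 and 25.5 to 19.5 and 19.9. SHMT2 and MTHFD2, which pass serine carbon on in mitochondria, fell by 0.27 and 0.37. SLC7A5 and SLC3A2, the chains of an amino acid exchanger, went from 544 and 531 to 406 and 422 and from 448 and 444 to 346 and 362 FPKM. The tRNA synthetases GARS, EPRS and AARS fell by 0.44, 0.30 and 0.23, and GPT2, an alanine aminotransferase, by 0.45 on the log2 scale. STC2, a secreted glycoprotein, went from 97.7 and 95.1 to 65.6 and 64.5 FPKM (-0.56 ± 0.04, adjusted p = 0.00256).

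In degron (−) cells 5 of the 37 genes rose and 1 fell (6.01% and 1.17% of all genes). Of the 12, 3 passed the threshold there, all rising: SLC3A2 (from 152 and 160.1 to 178 and 183 FPKM), AARS (from 72.1 and 71.9 to 81.3 and 86.6) and STC2 (from 25.7 and 26.1 to 30.6 and 31.95). The difference of the change between the populations passed the threshold for 9 of the 37 genes, all with the lower value in degron (++) cells (2.72% of all genes). Of these, 7 were among the 12, whose fall in degron (++) cells, by which they were chosen, is part of this difference (PSAT1, SHMT2, SLC7A5, SLC3A2, AARS, GARS and STC2). At 0 Gy 48 h 8 of the 12 were higher and 2 (PSPH and EPRS) lower in degron (++) cells. The level of PSAT1 at 0 Gy 48 h in degron (++) cells, 216 and 211 FPKM, lay between those at 4 Gy 30 h and 4 Gy 48 h, and that of STC2, 59.1 and 60.1, was below both. The count of 12 became 3 without either degron (++) 4 Gy 30 h library or degron (++) 4 Gy 48 h replicate 1, 5 without degron (++) 4 Gy 48 h replicate 2, 6 without either degron (−) 4 Gy 30 h library or without the trend in eBayes, and 0 when only the 4 libraries compared were fitted.

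**Figure D5:**
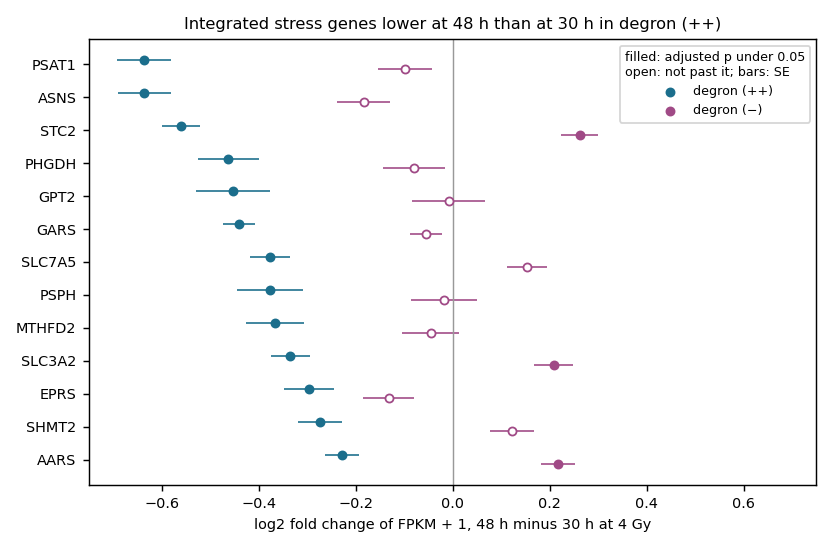
Change from 30 h to 48 h at 4 Gy on the log2(FPKM + 1) scale (horizontal axis) in degron (++) and degron (−) cells, with SE as bars and filled points past the threshold, for ASNS and 12 other integrated stress genes chosen for their fall in degron (++) cells. The degron (++) points run from -0.64 to -0.23, and the filled degron (−) points are SLC3A2, AARS and STC2, all above 0.

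In degron (−) cells 3 of the 45 genes rose over this time and 0 fell (7.18% of all genes were called, 6.01% rising and 1.17% falling). An unadjusted limma p under 0.05 was found for 15 of the 45, and for 2890 of all 12946 genes. HSPB8 rose from 10.2 and 8.998 to 16.3 and 18.01 FPKM (0.78 ± 0.07, adjusted p = 0.000589), ATF4 from 128 and 133 to 158 and 174 (0.35 ± 0.05, adjusted p = 0.00556) and HSPA5 from 187 and 187 to 213 and 218 (0.20 ± 0.03, adjusted p = 0.00395). In each the libraries of the times did not overlap. The call of ATF4 was lost without degron (−) 4 Gy 30 h replicate 1 (adjusted p = 0.0531), and 0 genes were called when only the 4 libraries compared were fitted. Over the same interval the summed level of the epithelial markers in degron (−) cells was 4284 to 4430 FPKM at 30 h and 5052 to 5195 at 48 h, with 4 of 8 markers rising, among them EPCAM from 29.9 and 31.9 to 44.8 and 52.8 FPKM, and its part in the results was not tested.

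The change over time differed between the populations for 7 of the 45 genes, all with the lower value in degron (++) cells (3.23% of all genes were called, 2.72% in this direction and 0.51% in the other). They were HSPB8 (-0.68 ± 0.09, adjusted p = 0.0124), ASNS, XBP1 (-0.38 ± 0.08, adjusted p = 0.0394), ATF4 (-0.36 ± 0.07, adjusted p = 0.0374), HSP90AA1 (-0.33 ± 0.07, adjusted p = 0.0437), HSPA5 (-0.27 ± 0.04, adjusted p = 0.0145) and HSPA8 (-0.25 ± 0.05, adjusted p = 0.0441). XBP1 was at 54.1 and 54.9 FPKM at 30 h and 47.5 and 48.1 at 48 h in degron (++), and at 27.9 and 26.7 and 31.5 and 31.1 in degron (−) cells, and neither change alone passed the threshold. HSP90AA1 went from 865 and 927 to 814 and 768 and from 511 and 489 to 557 and 550.0, also without a call in either. HSPA8 was at 1902 and 1951 and then 1716 and 1705 FPKM in degron (++), and at 1459.6 and 1506 and then 1531 and 1603 in degron (−) cells, again with no call in either. The 3 epithelial markers called here had the lower value in degron (++) cells as well, and their part was not tested. Of the 7 calls, 4 were left without degron (−) 4 Gy 48 h replicate 1 or either degron (−) 0 Gy 48 h library, 0 to 3 without any other 1 library, and 2 with TPM rescaling. The call of HSPB8 was lost only without degron (++) 4 Gy 30 h replicate 1.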

How the data were processed

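The 12 libraries were made from total RNA with a stranded mRNA kit, and the authors deposited their FPKM by gene symbol. The submitters' processing notes name TopHat2 2.1.1, Bowtie2 2.2.8, SAMtools 0.1.18, Cuffdiff 2.2.1 and the build hg19. Their normalization beyond FPKM and the annotation are not given in the sources used here. No counts were used, so depth and counting error are unknown. Values near 0 were read only as listed.

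Tests were run with limma 3.58.1 in R 4.3.3 on log2(FPKM + 1) (6 group means over 12 libraries, eBayes with trend) on genes with at least 1 FPKM in at least 2 libraries, in 9 comparisons. Dose and time comparisons share the 4 Gy 48 h libraries. In simulated data of the 0 Gy 48 h comparison (12946 genes, 200 changed) 94% of changes of log2 1 and 99% of log2 2 were recovered, with 4 false calls. Only the degron (++) 0 Gy 48 h group was changed, with independent normal noise and no difference in scaling. In the data 77.7% of genes were called there and the populations differed in summed FPKM. The rates therefore check the fit and do not carry over to the calls reported. Python 3.11.15, numpy 2.4.6, pandas 2.3.3, scipy 1.17.1 and matplotlib 3.10.9 were used for the rest. Promoters came from a RefSeq table of GRCh38.p14, and transcripts of HSPA1A and HSPA1B from GENCODE.

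The 46 genes and the other lists (219 of 220 genes listed, 207 tested) were chosen with earlier results of these data known. All 46 are named, and of each other list at most the 2 largest rises and falls at 0 Gy 48 h, apart from genes said to be chosen after their values were seen. Alternatives were quantile normalization, no filter, a pseudocount of 0.1, a filter at FPKM 5, rescaling to a sum of 1000000 (TPM) with and without MIR622, eBayes without trend, a replicate block, only the libraries compared, and leaving out each of 12 libraries.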

Additional observations from a re-analysis of the deposited data

Results flagged for a closer look

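The change from 30 h to 48 h at 4 Gy differed between the populations, by the interaction term of limma, for 7 of the 45 unfolded protein and heat shock genes tested (15.6%). Of all genes 3.23% were called, 2.72% in the same direction. Only 2 of the 7 calls were kept with TPM rescaling, and fewer than 7 with any library left out, as given above. On the log2(FPKM + 1) scale, degron (++) minus degron (−), the difference was -0.68 for HSPB8, -0.45 for ASNS, -0.38 for XBP1, -0.36 for ATF4, -0.33 for HSP90AA1, -0.27 for HSPA5 and -0.25 for HSPA8. For HSPB8, ATF4 and HSPA5 the rise in degron (−) cells passed the threshold, for ASNS the fall in degron (++) cells, and for XBP1, HSP90AA1 and HSPA8 neither.

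Of the 12 other integrated stress genes that fell in degron (++) cells, which were chosen for that fall, the same term passed the threshold for STC2 (-0.82), SLC3A2 (-0.54), PSAT1 (-0.54), SLC7A5 (-0.53), AARS (-0.45), SHMT2 (-0.40) and GARS (-0.39).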

How the results depend on the processing

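Every population difference listed here as turned was at most 0.38 in size on the log2 scale, and differences called in neither fit could also turn and are not listed. Of genes called before or after rescaling, those whose direction turned with TPM rescaling were at 0 Gy 48 h CANX (-0.043), MANF (-0.082), HSPA4 (-0.031), DNAJB1 (-0.076), at 4 Gy 30 h MANF (-0.12), EIF2AK3 (-0.24), HSF1 (-0.26), HSPA1B (-0.026), DNAJA1 (-0.25), DNAJB1 (-0.062), HSPD1 (-0.048), HSPE1 (-0.13), at 4 Gy 48 h CANX (-0.073), DNAJB9 (-0.079), HSF1 (-0.22), HSPA8 (-0.14), HSPA4 (-0.039), DNAJB1 (-0.20), HSPD1 (-0.14). With TPM rescaling without MIR622 they were at 4 Gy 30 h HSF1 (-0.14), DNAJA1 (-0.13), HSPE1 (-0.011), at 4 Gy 48 h CANX (-0.0058), DNAJB9 (-0.017), HSF1 (-0.15), HSPA8 (-0.070), DNAJB1 (-0.13), HSPD1 (-0.070), and with quantile normalization at 0 Gy 48 h HSPA8 (-0.20), at 4 Gy 30 h HSPA8 (-0.051), DNAJA1 (-0.18), at 4 Gy 48 h HSPA8 (-0.29), HSPD1 (-0.049). The number of the 45 genes higher in degron (++) cells went from 19, 22 and 18 to 9, 9 and 8 with TPM rescaling and to 12, 12 and 9 without MIR622, and the number lower from 13 and 15 to 21 and 23 at 4 Gy 30 h and 48 h with TPM rescaling. Calls over all genes were not counted under these scalings. For dose in degron (++) cells the 2 rises became 1 with no filter, a filter at FPKM 5 or quantile normalization, and 0 with either TPM rescaling or only the libraries compared. The 1 fall became 0 with no filter, eBayes without trend, the replicate block or only the libraries compared. In degron (−) cells the 4 rises with dose became 2 with TPM rescaling and 0 with only the libraries compared, and quantile normalization gave 1 fall with dose and 1 with time. With only the libraries compared, the fall of 1 gene over time in degron (++) and the rise of 3 in degron (−) cells became 0. The 7 interaction calls became 3 with no filter or eBayes without trend, 4 with quantile normalization, TPM rescaling without MIR622, the replicate block or only the libraries compared, and 2 with TPM rescaling, and a pseudocount of 0.1 or a filter at FPKM 5 gave 1 call in the other direction. The count of 12 other integrated stress genes became 6 with eBayes without trend and 0 with only the libraries compared.

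With each library left out in turn, the genes higher and lower in degron (++) cells numbered 15 to 19 and 11 to 15 at 0 Gy 48 h, 20 to 22 and 12 to 13 at 4 Gy 30 h, and 15 to 19 and 13 to 15 at 4 Gy 48 h. Rises with dose numbered 0 to 2 in degron (++) and 1 to 4 in degron (−) cells, with 0 to 1 falls in degron (++) cells. Over time 1 to 2 genes fell in degron (++) and 2 to 4 rose in degron (−) cells. Interaction calls over time numbered 0 to 5 lower, of which 0 to 4 were among the 7, and 0 to 1 higher, and falls among the other integrated stress genes 3 to 12. A library whose partner was left out was assumed to vary like the other groups. Called population differences kept direction and call under all alternatives in 20 of 33 genes at 0 Gy 48 h, 21 of 35 at 4 Gy 30 h and 21 of 33 at 4 Gy 48 h. None of the called dose, time or interaction results did so. How many of all genes kept their calls in this way was not counted. Libraries with the same replicate number shared only a number: their deviations correlated between groups at -0.04 to 0.12 (median 0.04, 15 pairs of groups, 2 over 0.1), and with the replicate block 6 gene results lost their call and 1 gained one. What depth would limit is unknown without counts. The cause of these changes was not tested.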
